A study of Mus musculus with 20 samples.

Results

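The rise of 10 genes was followed across sorted mouse bone-marrow populations of Hopx knockout (KO) and wild-type (WT) mice: Atp8b4, Cst7, Tyrobp, Plac8, Lgals1, Ubash3a, Clec4d, Tespa1, Cnn3 and Ccl9. They are 10 of the 45706 genes counted, and they were selected on normalized counts that were higher in WT MPP2 or WT MPP3 than in WT LT-HSC libraries. The WT values therefore describe the choice and are given with no test. The question put to the KO libraries, which the rule of choice did not use, was whether the same rise recurs when Hopx is lost. The genes were, however, chosen with earlier results of these data known. The tests took their spread from all 20 libraries, WT included, so their p-values are not wholly independent of the choice.

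RNA was sequenced from 20 libraries of bone marrow that a cell sorter had divided into long-term haematopoietic stem cells (LT-HSC) and the multipotent progenitors MPP2 and MPP3. Every animal was on the C57BL/6 background and 8 weeks old. The groups were KO MPP3 (n = 3), KO MPP2 (n = 3), KO LT-HSC (n = 3), WT MPP3 (n = 4), WT MPP2 (n = 3) and WT LT-HSC (n = 4). The sources used here do not give the kind of Hopx allele, the sorting gates, or which and how many animals gave each library, so p-values measure only the spread between these libraries.

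LT-HSC are rare, mostly resting cells that can rebuild the whole blood system. MPP2 and MPP3 lie directly downstream of them, with MPP2 biased towards platelet and red-cell output and MPP3 towards granulocytes and macrophages. Several of the 10 genes belong to the equipment of myeloid cells, such as a chemokine, a pathogen-sensing lectin and an adaptor of activating receptors, while a pair of them, Ubash3a and Tespa1, is best known from T cell receptor signalling. Hopx encodes a small homeodomain-containing protein that does not itself bind DNA.

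Each library held 11163345 to 15189909 reads in genes, and all values below are normalized counts, meaning reads divided by the library's size factor. Hopx had 0 reads in all 9 KO libraries and at least 1 read in 10 of 11 WT libraries. The exception was WT LT-HSC replicate 4, whose label therefore has no support from Hopx; without it, 7 of the 10 genes were called higher in KO MPP3 and 1 in KO MPP2, as with it. Summed over 10 stem cell markers, KO MPP3 libraries had 4112 to 6394 normalized counts and KO MPP2 libraries 5902 to 12362, against 18102 to 25039 in KO LT-HSC libraries. KO LT-HSC libraries were thus apart from both progenitors, while KO MPP3 and KO MPP2 overlapped. A few libraries stood apart. KO LT-HSC replicate 1 held 25027 summed normalized counts of 8 mature neutrophil markers, against at most 294 in the other two KO LT-HSC libraries, and its B cell marker sum was 2869.8, against at most 715 in them. KO LT-HSC replicate 2 had an erythroid marker sum of 24476, against at most 2967 in the other two. KO MPP2 replicate 3 had reads in 14931 genes, the fewest of all libraries. Its platelet-lineage sum was 12160, against 71422 and 58972 in KO MPP2 replicates 1 and 2, and its erythroid sum of 72312 was the highest of KO MPP2. WT MPP2 replicate 3 held 12274 summed normalized counts of 7 early lymphoid markers, against at most 155 in the other two WT MPP2 libraries. The same library had the highest granulocyte precursor sum (68494) and the lowest platelet-lineage sum (3238) of WT MPP2. Mature neutrophil sums were also high in WT MPP3 replicates 2 (25242) and 3 (19529.9) and in WT LT-HSC replicate 2 (17099.8). In WT MPP2 replicate 2 the sum was 8133, against at most 728 in the other WT MPP2 libraries. That library also had an erythroid sum of 77858, against at most 10116 in the others of its group. WT MPP3 replicates 2 and 3 had granulocyte precursor sums of 18462 and 23842, against 134651 and 118464 in replicates 1 and 4. Their erythroid sums were 690 and 196, against 24658 and 16757.5, so the WT MPP3 libraries differed among themselves.

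In KO MPP3, 7 of the 10 genes rose against KO LT-HSC: Ccl9, Atp8b4, Cst7, Tyrobp, Plac8, Lgals1 and Ubash3a. The share of all 17160 tested genes called higher in that comparison was 0.909%, and 0.997% were called lower. All 10 genes had every KO MPP3 library above every KO LT-HSC library. The share of all tested genes separated in this way was not counted, so this is a description. Their median log2 fold change was 4.44, beside 0.03 for all tested genes. Tespa1, Cnn3 and Clec4d had positive fold changes that did not pass the test. In a fit of the 9 KO libraries alone, 6 of the 10 were called, with Tespa1 gained and Atp8b4 and Cst7 lost.

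In KO MPP2, 1 of the 10 genes, Clec4d, rose against KO LT-HSC at an adjusted p under 0.05. Genes called higher made up 0.117% of all tested genes in that comparison and genes called lower 1.08%. Fold changes were positive in 9 of the 10 genes, Cnn3 being the exception, with a median of 2.26 beside -0.13 for all tested genes. At an unadjusted p under 0.05 the count was 7 of 10, and 2955 of 17160 genes overall. A further description is that 6 genes, namely Cst7, Plac8, Lgals1, Ubash3a, Clec4d and Ccl9, had every KO MPP2 library above every KO LT-HSC library. Here too the share of all tested genes so separated was not counted. Both comparisons use the same 3 KO LT-HSC libraries, so their values are set side by side and are not independent of each other. With the 9 KO libraries alone, 0 of the 10 were called in KO MPP2. All 10 genes passed the filter on low values, but they could pass through the progenitor libraries alone, so these counts are a description of the set.

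**Figure D1:**
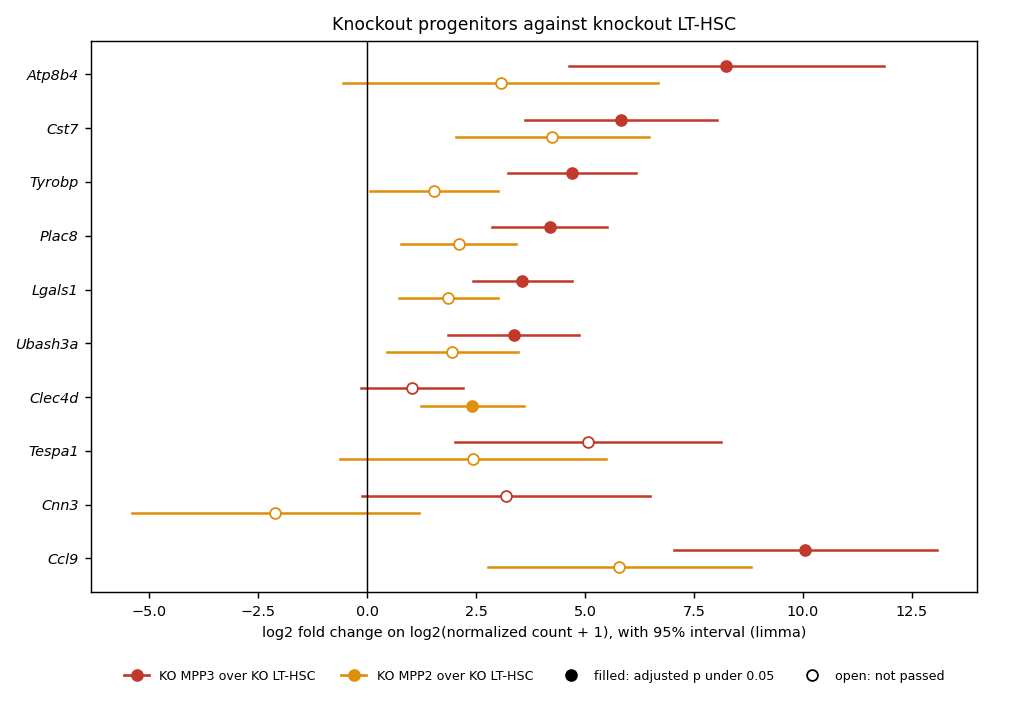
Log2 fold change of each gene in KO MPP3 (red) and KO MPP2 (orange) over KO LT-HSC, from limma on log2(normalized count + 1), with lines for the 95% interval. Filled points passed an adjusted p of 0.05: 7 genes in KO MPP3, and Clec4d alone in KO MPP2.

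Ccl9 encodes a CC chemokine of rodents that is secreted by myeloid cells and binds the receptor Ccr1. In GRCm38, the build of all positions here, it lies at chr11:83572919-83578636 on the minus strand (ENSMUSG00000019122) and has 5 merged exons. Ccl9 had 2961, 5147 and 6735 normalized counts in the 3 KO MPP3 libraries and 264, 339 and 158 in the 3 KO MPP2 libraries, against 0, 43.9 and 0.908 in the 3 KO LT-HSC libraries. It was thus close to absent from KO LT-HSC, low in KO MPP2 and abundant in KO MPP3, with no overlap between the 3 groups. Its rise in KO MPP3 had the largest fold change of the 10 genes (log2 fold change 10.05 ± 1.43 (SE), limma adjusted p = 0.000956). In KO MPP2 the difference did not pass (log2 fold change 5.78 ± 1.43 (SE), limma adjusted p = 0.0563), although it did in 4 of 30 other settings. In WT, the values were 4868, 4155, 2593 and 3795 in MPP3 and 103, 223 and 2629.7 in MPP2, against 0, 18.04, 79.6 and 25.9 in LT-HSC. WT MPP2 replicate 3 was far above the other two WT MPP2 libraries, and the WT MPP2 log2 difference was 4.79 with it and 3.42 without it.

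Tyrobp encodes DAP12, a membrane adaptor with an ITAM that couples activating receptors of myeloid and NK cells to the kinase Syk. It lies at chr7:30413760-30417585 on the plus strand (ENSMUSG00000030579). Tyrobp had 3142, 2724 and 2539 normalized counts in KO MPP3 and 323, 614 and 148 in KO MPP2, against 486, 62.4 and 39.0 in KO LT-HSC. Every KO MPP3 library was above all the others, while KO MPP2 and KO LT-HSC overlapped through KO LT-HSC replicate 1. Tyrobp rose in KO MPP3 (log2 fold change 4.70 ± 0.70 (SE), limma adjusted p = 0.00140), and without KO LT-HSC replicate 1 the log2 fold change was 5.79. The KO MPP2 difference did not pass (log2 fold change 1.53 ± 0.70 (SE), limma adjusted p = 0.275), and without that library it was 2.62, with a limma adjusted p of 0.0501. In WT the values were 3087, 2307, 2090.2 and 2139 in MPP3 and 597, 482 and 1837 in MPP2, against 44.0, 40.8, 72.2 and 46.4 in LT-HSC.

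Clec4d encodes a C-type lectin receptor of myeloid cells that recognises fungal and mycobacterial glycolipids together with its relative Clec4e. It lies at chr6:123262111-123275265 on the plus strand (ENSMUSG00000030144). Clec4d had 147, 229 and 244 normalized counts in KO MPP3 and 525, 1017 and 278 in KO MPP2, against 63.2, 115 and 132 in KO LT-HSC. It was the one gene of the 10 with its highest levels in MPP2, and the 3 KO groups did not overlap. The KO MPP2 rise passed narrowly (log2 fold change 2.41 ± 0.56 (SE), limma adjusted p = 0.0419). It did not pass without KO LT-HSC replicate 1 (2.0964, limma adjusted p = 0.167), and across 30 other settings the call was lost in 15. The KO MPP3 difference was smaller and did not pass (log2 fold change 1.03 ± 0.56 (SE), limma adjusted p = 0.584), with a 95% interval -0.15 to 2.20. WT libraries had 192, 209.8, 307 and 244 in MPP3 and 395, 741 and 589 in MPP2, against 118, 52.2, 201 and 39.3 in LT-HSC, and MPP3 overlapped LT-HSC there.

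Plac8 encodes a small cysteine-rich protein found in many haematopoietic cells, and it was the most abundant of the 10 genes per kilobase of exon in every KO group. It lies at chr5:100553725-100572245 on the minus strand (ENSMUSG00000029322). Plac8 had 19523, 25992 and 25219.9 normalized counts in KO MPP3 and 4339, 7136 and 5386 in KO MPP2, against 2495, 1686 and 502 in KO LT-HSC. The gene was thus already well expressed in KO LT-HSC, and the 3 groups did not overlap. Plac8 rose in KO MPP3 (log2 fold change 4.19 ± 0.63 (SE), limma adjusted p = 0.00140), and the KO MPP2 difference did not pass (log2 fold change 2.0998 ± 0.63 (SE), limma adjusted p = 0.0975). WT had 30322, 20606, 13193 and 21697 in MPP3 and 4693, 4968 and 23100 in MPP2, against 761, 902, 3109 and 804 in LT-HSC. WT MPP2 replicate 3 again stood far above its group, and the WT MPP2 log2 difference was 2.83 with it and 2.08 without it.

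Cst7 encodes cystatin F, an inhibitor of lysosomal cysteine cathepsins in immune cells, at chr2:150570415-150578944 on the plus strand (ENSMUSG00000068129). Cst7 had 1149, 2125 and 1161 normalized counts in KO MPP3 and 729, 1075 and 139 in KO MPP2, against 1.09, 76.4 and 97.1 in KO LT-HSC. Both progenitor groups lay above all KO LT-HSC libraries, though KO MPP2 replicate 3 was far below the other two KO MPP2 libraries. Cst7 rose in KO MPP3 (log2 fold change 5.82 ± 1.05 (SE), limma adjusted p = 0.00580), whereas the KO MPP2 difference did not pass (log2 fold change 4.25 ± 1.05 (SE), limma adjusted p = 0.0559). KO LT-HSC replicate 1 was near 0, and without it the log2 fold change was 4.02 in KO MPP3 (limma adjusted p = 0.00648) and 2.46 in KO MPP2 (limma adjusted p = 0.149). Without KO MPP2 replicate 3 the KO MPP2 value was 5.14 (limma adjusted p = 0.0420). Lgals1 encodes galectin-1, a secreted lectin that binds beta-galactosides, at chr15:78926725-78930465 on the plus strand (ENSMUSG00000068220). Lgals1 had 2662, 3623 and 2311 in KO MPP3 and 576, 2008 and 562 in KO MPP2, against 314, 197 and 217 in KO LT-HSC. Its KO LT-HSC libraries were close to each other and below every progenitor library. Lgals1 rose in KO MPP3 (log2 fold change 3.56 ± 0.54 (SE), limma adjusted p = 0.00173), and the KO MPP2 difference did not pass (log2 fold change 1.86 ± 0.54 (SE), limma adjusted p = 0.0931). In WT, Cst7 had 2436, 1010.2, 1452 and 1853 in MPP3 and 727, 737 and 1249 in MPP2, against 24.7, 54.1, 23.3 and 13.4 in LT-HSC. WT levels of Lgals1 were 2856, 1485, 1106 and 3148 in MPP3 and 693, 1857 and 2041 in MPP2, against 161, 410.2, 466 and 212 in LT-HSC.

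Atp8b4 encodes a P4-type ATPase, a family whose members move phospholipids between the leaflets of a membrane, at chr2:126320973-126500674 on the minus strand (ENSMUSG00000060131), with 31 merged exons. Atp8b4 had 520.5, 1313 and 1571 normalized counts in KO MPP3 and 61.0, 186 and 0.982 in KO MPP2, against 38.1, 0 and 0 in KO LT-HSC. Of 3 KO LT-HSC libraries 2 had 0 reads, and KO MPP2 replicate 3 had almost none, so KO MPP2 and KO LT-HSC overlapped. Atp8b4 rose in KO MPP3 (log2 fold change 8.24 ± 1.72 (SE), limma adjusted p = 0.0152), but it lost the call in 8 of 30 other settings, and the KO MPP2 difference did not pass (log2 fold change 3.06 ± 1.72 (SE), limma adjusted p = 0.381). KO LT-HSC replicate 1 held all the KO LT-HSC reads, and without it the log2 fold change was 10.0017 in KO MPP3 and 4.83 in KO MPP2, where it again did not pass (limma adjusted p = 0.258). Such values depend on the added 1, since the remaining KO LT-HSC libraries are at 0. In WT the values were 2104, 788, 244 and 1569 in MPP3 and 372, 103 and 794 in MPP2, against 0, 37.0, 0 and 0 in LT-HSC.

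Cnn3 encodes the actin-binding protein calponin 3, at chr3:121426497-121458207 on the plus strand (ENSMUSG00000053931). Cnn3 had 783, 1087 and 487 normalized counts in KO MPP3 and 65.7, 103 and 0 in KO MPP2, against 91.5, 72.9 and 79.9 in KO LT-HSC. KO MPP3 lay above both other groups, and KO MPP2 libraries spanned the KO LT-HSC range with 1 library at 0. Neither difference passed, in KO MPP3 (log2 fold change 3.19 ± 1.57 (SE), limma adjusted p = 0.505) or in KO MPP2 (log2 fold change -2.11 ± 1.57 (SE), limma adjusted p = 0.535), where leaving out KO MPP2 replicate 3 turned the value to 0.0216. WT libraries had 1963, 749, 1454 and 986 in MPP3 and 90.0, 273 and 643 in MPP2, against 0.916, 38.0, 80.6 and 0 in LT-HSC. Exons of Cnn3 share 538 bases with Gm42928 on the opposite strand, and whether counting used strand is not known, so reads of the 2 genes cannot be told apart there.

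Ubash3a encodes a negative regulator of T cell receptor signalling with ubiquitin-binding, SH3 and phosphatase-like parts, at chr17:31207873-31246892 on the plus strand (ENSMUSG00000042345). Ubash3a had 927, 693 and 768 normalized counts in KO MPP3 and 143, 652 and 281 in KO MPP2, against 31.6, 141 and 98.0 in KO LT-HSC. The lowest KO MPP2 library was just above the highest KO LT-HSC library. Ubash3a rose in KO MPP3 (log2 fold change 3.36 ± 0.72 (SE), limma adjusted p = 0.0176), which did not pass without KO LT-HSC replicate 1 (2.74, limma adjusted p = 0.101). The KO MPP2 difference did not pass (log2 fold change 1.95 ± 0.72 (SE), limma adjusted p = 0.175). Tespa1 encodes a protein that takes part in T cell receptor signalling during thymocyte development, at chr10:130322870-130364111 on the plus strand (ENSMUSG00000034833). Tespa1 had 1741, 1980.1 and 1771 in KO MPP3 and 685, 237 and 156 in KO MPP2, against 169.9, 36.01 and 24.5 in KO LT-HSC. KO MPP3 libraries agreed closely and stood far above the other groups, which overlapped. Its KO MPP3 difference did not pass in the fit over 20 libraries (log2 fold change 5.07 ± 1.45 (SE), limma adjusted p = 0.0933), and passed in 6 of 30 other settings. One of these was a fit of the 9 KO libraries alone (limma adjusted p = 0.0133), in which 6 of the 10 genes were called and Atp8b4 (limma adjusted p = 0.0788) and Cst7 (0.0911) were not. The KO MPP2 difference did not pass (log2 fold change 2.44 ± 1.45 (SE), limma adjusted p = 0.413).

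WT libraries had 792, 558, 1100.3 and 691 normalized counts of Ubash3a in MPP3 and 301, 854 and 625 in MPP2, against 8.24, 82.6, 28.6 and 51.8 in LT-HSC. For Tespa1 they had 1318, 2737, 2352 and 1604 in MPP3 and 429, 95.1 and 1204 in MPP2, against 0, 0, 191 and 16.1 in LT-HSC, where MPP2 overlapped LT-HSC. Of the T cell markers, Cd3g and Cd8a had 0 reads in all 9 KO libraries, and Cd3e had 2.18 normalized counts in KO LT-HSC replicate 1 and 0 in the others. Cd3d had 17.8, 4.72 and 11.8 in KO MPP3 and 0, 2.66 and 0 in KO MPP2, against 0, 0 and 2.72 in KO LT-HSC, so it was low throughout and highest in KO MPP3. Cd4 had 0, 13.2 and 33.6 in KO MPP3 and 0, 19.5 and 0 in KO MPP2, against 89.3, 1.76 and 0 in KO LT-HSC. The sum of 8 T cell markers, led by Lck, was 435 to 621 in KO MPP3 and 134 to 189 in KO MPP2, against 231 to 399.7 in KO LT-HSC.

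**Figure D2:**
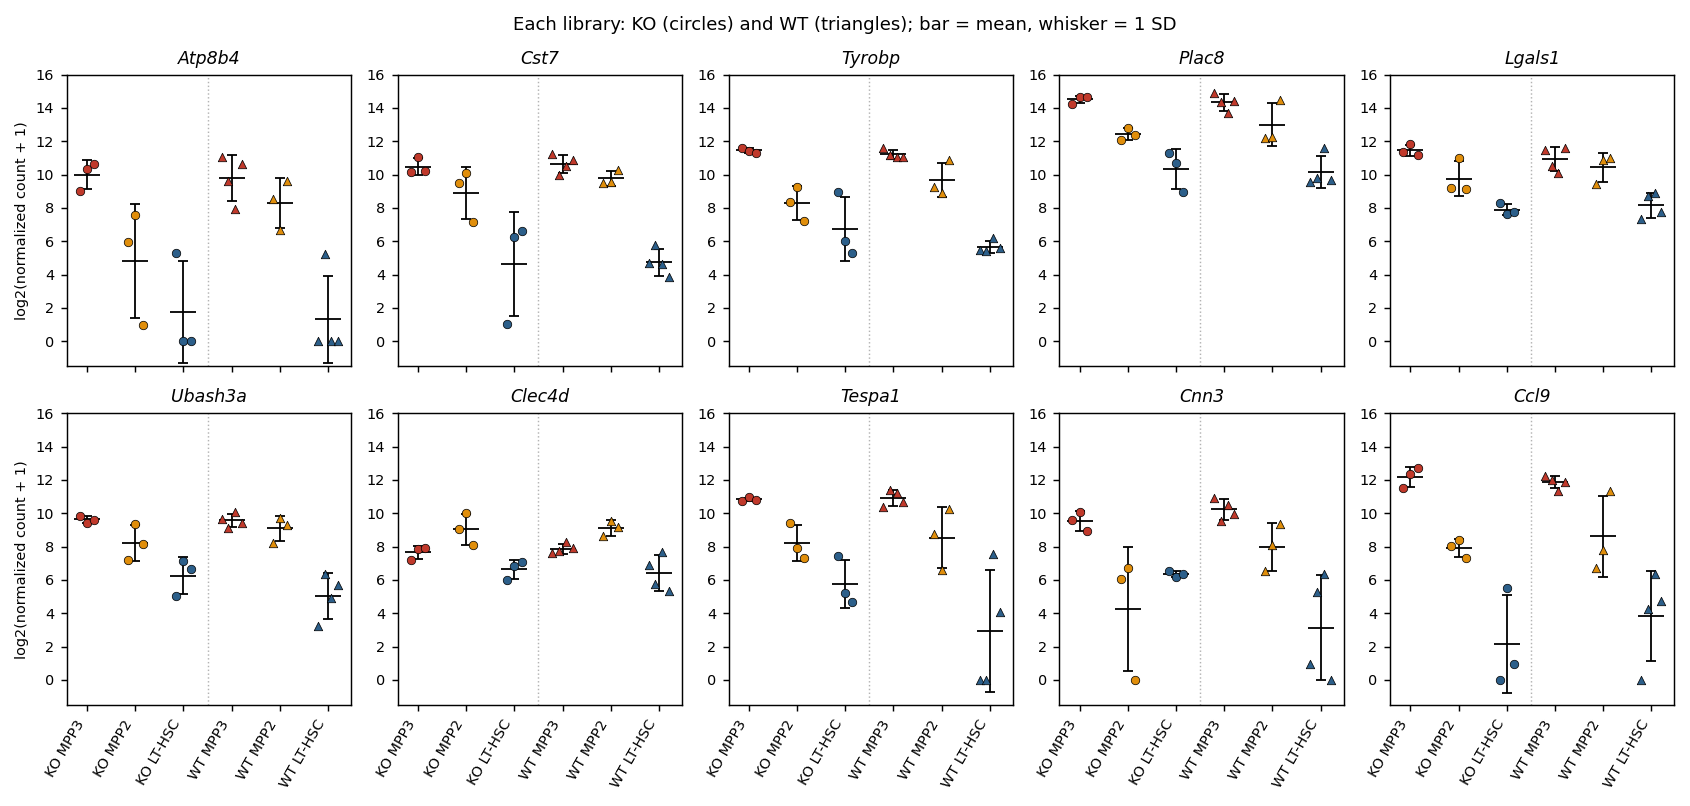
Log2(normalized count + 1) of the 10 genes in each of the 20 libraries, by population, with KO as circles left of the dotted line and WT as triangles right of it; bars are group means and whiskers 1 SD. In all 10 panels the 3 KO MPP3 libraries lie above the 3 KO LT-HSC libraries, and Clec4d is the panel where MPP2 is highest.

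Promoter sequence was looked up for the 10 genes, since several rose together. RefSeq (GRCm38.p6) gave 8 promoters for 7 of the 10 genes, and none for Tyrobp, Lgals1 and Tespa1. The 7 genes include Cnn3, called higher in neither KO progenitor, and Clec4d, called higher in KO MPP2 only. They lack Tyrobp and Lgals1, which rose in KO MPP3, so the counts below do not describe the genes that rose as a set. The 150 bases before the start site are shown 5′ to 3′ on the gene's strand for Ccl9 (chr11:83578637-83578786, minus strand), with the largest rise, for Plac8 (chr5:100572206-100572355, minus strand), the most abundant, for Atp8b4 (chr2:126491554-126491703, minus strand) and for Ubash3a (chr17:31207916-31208065, plus strand). These RefSeq starts need not be the main start of each gene. The sequence after the start was found in 1 of 2 GENCODE transcripts of Ccl9 and 1 of 4 of Plac8. It was found in 2 of 5 transcripts of Atp8b4, whose start at 126491553 lies inside the gene, and in 1 of 9 of Ubash3a. Capitals mark a match to any of the 5 motifs searched on both strands.
Ccl9: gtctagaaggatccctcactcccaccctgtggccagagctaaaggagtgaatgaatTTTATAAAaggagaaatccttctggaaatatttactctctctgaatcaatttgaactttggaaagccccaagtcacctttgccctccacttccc
Plac8: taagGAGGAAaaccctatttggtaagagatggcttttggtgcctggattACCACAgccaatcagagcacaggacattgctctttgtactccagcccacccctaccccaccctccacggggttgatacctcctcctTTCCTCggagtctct
Atp8b4: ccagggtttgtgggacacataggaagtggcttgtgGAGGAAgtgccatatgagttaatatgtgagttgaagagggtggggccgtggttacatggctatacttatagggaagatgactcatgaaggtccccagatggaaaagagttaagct
Ubash3a: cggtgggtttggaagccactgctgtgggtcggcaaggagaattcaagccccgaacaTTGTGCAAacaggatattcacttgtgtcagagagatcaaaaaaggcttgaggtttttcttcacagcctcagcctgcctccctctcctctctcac
Windows of 300 bases, from 250 before to 50 after the start, were counted for the 8 promoters beside all 32851 RefSeq promoters. GAGGAA, a core of ETS and PU.1 sites, was in 3 of 8 (Atp8b4, Plac8 and Clec4d) and in 28.3% of all. TGTGGT, a RUNX core, was in 2 of 8 (Cst7 and Plac8) and in 16.8% of all, and TTGCNNAA, a C/EBP core, in 3 of 8 (Cst7, the other Plac8 promoter and Ubash3a) and in 10.8% of all. The motif AGATAA, bound by GATA factors, was in 1 of 8 (Ubash3a) and in 11.2% of all. The core promoter motif TATAAA was in 1 of 8 (Ccl9) and in 13.6% of all. In Ccl9 the capitals hold TATAAA on both strands, in matches that start 94 and 92 bases before the start site and overlap each other. No motif was shared by more than 3 of the 8 promoters.

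The KO progenitors were then compared with each other, a contrast that the choice of genes did not use for KO. Tyrobp fell in KO MPP2 against KO MPP3 (log2 fold change -3.17 ± 0.70 (SE), limma adjusted p = 0.0219) and was the only call of the 10, one that was lost in 8 of 29 other settings. With the run of library numbers in the sample titles as a covariate, 4 of the 10 were called lower, and with the 9 KO libraries alone 0 were. Genes called lower made up 2.12% of the 17160 tested and genes called higher 0.67%. In 9 of the 10 genes all KO MPP2 libraries were below all KO MPP3 libraries, and in Clec4d all were above. These separations are a description, as their share over all tested genes was not counted. The median log2 fold change was -2.36, beside -0.15 for all tested genes, and 7 of 10 had an unadjusted p under 0.05, as did 2999 of all tested genes.

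Of the genes that did not pass, Cnn3 (log2 fold change -5.29 ± 1.57 (SE), limma adjusted p = 0.0792) and Atp8b4 (log2 fold change -5.17 ± 1.72 (SE), limma adjusted p = 0.116) each had KO MPP2 replicate 3 at or near 0. Without that library their log2 fold changes were -3.16 and -3.25, and that of Ccl9 was -3.96. Ccl9 averaged 254 ± 90.9 normalized counts in KO MPP2 and 4948 ± 1895 in KO MPP3 (SD, n = 3 each), a log2 fold change of -4.27. Plac8 averaged 5620.3 ± 1414 in KO MPP2 and 23578 ± 3533 in KO MPP3, a log2 fold change of -2.09. The other values were -2.63 for Tespa1, -1.70 for Lgals1, -1.57 for Cst7 and -1.41 for Ubash3a. Clec4d went the other way at 1.39 ± 0.56 (limma adjusted p = 0.202), with 607 ± 376 in KO MPP2 and 207 ± 52.5 in KO MPP3. WT showed the same order for Clec4d, a log2 difference of 1.24 between WT MPP2 and WT MPP3, and that WT value is a description.

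Set beside the WT differences that chose the genes, the KO differences had lower medians in both progenitors, and no test was made of this. The KO MPP3 minus KO LT-HSC log2 fold changes ran from 1.03 to 10.05 with a median of 4.44, and the WT ones from 1.48 to 8.49 with a median of 5.74. In MPP2 the KO values ran from -2.11 to 5.78 with a median of 2.26, and the WT ones from 2.27 to 6.98 with a median of 4.41. KO and WT libraries of the same population overlapped for all 10 genes in LT-HSC, MPP2 and MPP3, and how many of all tested genes overlap was not counted. The KO minus WT log2 differences had a median of 0.12 in MPP3, with 6 positive and 4 negative. In MPP2 the median was -0.78 and all 10 were negative, beside a median of -0.10 for all tested genes, and in LT-HSC it was 0.34, with 7 positive and 3 negative. The MPP2 differences of Cnn3 (-3.73) and Atp8b4 (-3.47) include KO MPP2 replicate 3, which had 0 and 0.982 normalized counts of them. The WT side includes WT MPP2 replicate 3, the highest WT MPP2 library for every gene except Ubash3a and Clec4d. It had 2630 of Ccl9, 23100 of Plac8 and 1837 of Tyrobp, far above the other WT MPP2 libraries. Choosing genes on high WT progenitor values can by itself enlarge the WT differences, and its part was not tested.

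**Figure D3:**
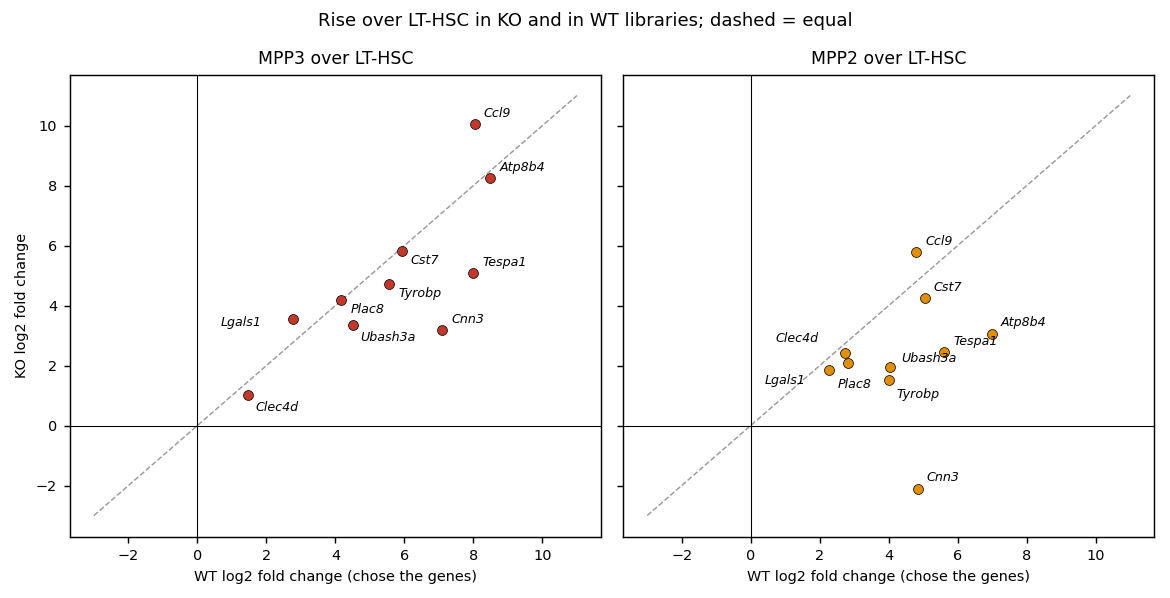
Log2 fold change over LT-HSC of each gene in KO (vertical axis) against WT (horizontal axis), for MPP3 on the left and MPP2 on the right; the dashed line marks equal values. The MPP3 points lie on both sides of the line and all MPP2 points except Ccl9 below it, with Cnn3 below 0 in KO; WT values chose the genes, so the plot is a description.

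Levels between genes were compared only as normalized counts per kilobase of merged exon. Plac8 led every KO group, with 14810 per kilobase in KO MPP3 and 3530.4 in KO MPP2, against 981 in KO LT-HSC. Tyrobp averaged 4201 per kilobase in KO MPP3 and Lgals1 3173, and these were next in line there. Ubash3a was the lowest in KO MPP3 at 70.8 per kilobase. Atp8b4 was the lowest in KO LT-HSC at 1.91 per kilobase, beside Ccl9 at 4.91.

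Library numbers in the sample titles fall into runs, and 2 of the runs hold KO libraries of all 3 populations. The labels do not say what the numbers mean. Within the first of these runs, all 10 genes were higher in KO MPP3 than in the mean of 2 KO LT-HSC libraries, by 0.78 to 8.79 on the log2 scale, and 9 of 10 were higher in KO MPP2, with a range of -0.31 to 5.84. Within the other run, with 1 library per population, all 10 were higher in KO MPP3, by 0.80 to 11.4, and all 10 in KO MPP2, by 0.36 to 7.54. The upper ends, Ccl9 and Atp8b4, depend on the added 1. KO LT-HSC replicate 3, the reference there, had 0.908 normalized counts of Ccl9 and 0 of Atp8b4. How many of all tested genes were higher within each run was not counted, so these counts are a description. The third KO MPP3 and KO MPP2 libraries have no KO LT-HSC library in their run.

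Other genes of the same families and pathways were taken from 8 lists, of which 5 genes rose and 2 fell in KO MPP3 against KO LT-HSC. Over all 17160 tested genes, 0.909% were called higher and 0.997% lower in that comparison. Of 20 tested genes of the DAP12 list, receptors and kinases around Tyrobp, 2 rose and 0 fell. Lat2, a membrane adaptor of immune receptors, had 1975 ± 102 in KO MPP3, against 189 ± 114 in KO LT-HSC (log2 fold change 3.54, adjusted p = 0.0106 by limma), and Trem3, a DAP12-coupled receptor, had 217 ± 138 in KO MPP3, against 15.97 ± 27.7 in KO LT-HSC (5.63, adjusted p = 0.0428 by limma). Of 14 CC chemokines and receptors tested, 2 rose: Ccl3 had 1530 ± 292 in KO MPP3, against 53.9 ± 57.3 in KO LT-HSC (5.95, adjusted p = 0.0217 by limma), and Ccr7 had 52.1 ± 35.2 in KO MPP3, against 0 reads in KO LT-HSC, at least 54.4-fold higher. Of 16 cystatins and cathepsins tested, 1 rose, the neutrophil protease gene Ctsg, with 6666 ± 1569 in KO MPP3, against 0 reads in KO LT-HSC, at least 6955-fold higher; these bounds take 3 reads over the KO LT-HSC group as the floor. Of 10 C-type lectins tested, 1 fell, Clec1a, with 6.61 ± 11.4 in KO MPP3, against 327 ± 131 in KO LT-HSC (-6.82, adjusted p = 0.0193 by limma). Of 22 genes of antigen receptor signalling tested, 1 fell, the adaptor Lcp2, with 1091 ± 88.6 in KO MPP3, against 2679 ± 445 in KO LT-HSC (-1.28, adjusted p = 0.00937 by limma). None of 7 galectins, 13 P4-ATPases and 3 calponins or transgelins passed.

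In KO MPP2 against KO LT-HSC, Clec1a fell (-6.43, adjusted p = 0.0408 by limma) and no other gene of the 8 lists passed. Each list had the same number of tested genes as above. Over all tested genes, 0.117% were called higher and 1.08% lower in KO MPP2 against KO LT-HSC. In KO MPP2 against KO MPP3 the shares were 0.67% higher and 2.12% lower. Between the progenitors, KO MPP2 had lower Trem3 (0 reads, with 217 ± 138 normalized counts in KO MPP3), lower Ctss (-5.97, adjusted p = 0.00857 by limma) and lower Ctsz (-0.91, adjusted p = 0.04996 by limma) than KO MPP3. The chemokine genes Ccl3 (-8.69, adjusted p = 0.00238 by limma) and Ccl4 (-4.05, adjusted p = 0.0212 by limma) were lower in KO MPP2 as well, as was Ccr7, with 0 reads. Higher in KO MPP2 than in KO MPP3 were the P4-ATPase gene Atp8a1 (1.11, adjusted p = 0.0262 by limma) and 3 genes of antigen receptor signalling, namely Grap2 (4.97, adjusted p = 0.0398 by limma), Lcp2 (0.96, adjusted p = 0.0456 by limma) and Fyb (1.25, adjusted p = 0.0498 by limma). Ubash3a and Tespa1 had negative fold changes in that comparison that did not pass.

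The genes whose pattern over 20 libraries was most like the mean of the 10, among 10653 genes compared, were Mpeg1 (Pearson's r = 0.950), Bin1 (0.940), Ctsg (0.933), Adgrg3 (0.930) and Mpo (0.925). The libraries fall into 6 groups, which all these points share, so r describes the common pattern of the groups and has no p. Mpeg1, which encodes the pore-forming protein perforin-2 of phagocytes, averaged 205 ± 86.5 normalized counts in KO MPP3 and 19.5 ± 7.61 in KO MPP2, against 0 in all KO LT-HSC libraries. Taken gene by gene, the most alike was Haao for Plac8 (0.958), Rab44 for Ccl9 (0.943), Bin1 for Tyrobp (0.943), Cd37 for Tespa1 (0.942), Ucp2 for Ubash3a (0.926), Adgrg3 for Cst7 (0.923), Ctsg for Atp8b4 (0.915), Mpeg1 for Lgals1 (0.911), Hdc for Cnn3 (0.888) and Gna14 for Clec4d (0.849). Among the 10 genes themselves, r over the 9 KO libraries was positive in 44 of 45 pairs, with a median of 0.677, and the lowest was -0.111 for Clec4d with Cnn3.

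Markers of other cell types moved with the populations. The sum of 7 granulocyte precursor markers, led by Mpo in the KO progenitors, was 107530 to 142393 in KO MPP3 and 1313 to 23519 in KO MPP2, against 1631 to 1706 in KO LT-HSC. KO MPP3 was above every other KO library by a wide margin, and among KO MPP2 libraries the sum varied widely. The sum of 8 monocyte and macrophage markers was 2536 to 3003 in KO MPP3 and 559 to 875 in KO MPP2, against 250.3 to 833 in KO LT-HSC. For 7 early lymphoid markers, led by Flt3, it was 10109.8 to 12680.3 in KO MPP3 and 227 to 504 in KO MPP2, against 171 to 1111 in KO LT-HSC. Platelet-lineage markers ran the other way, with sums over 7 genes of 761 to 1011 in KO MPP3 and 12160.2 to 71422 in KO MPP2, against 8391 to 36189 in KO LT-HSC.

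The NK cell sum over 7 genes was 5176 to 10084 in KO MPP3 and 3885 to 11054 in KO MPP2, against 1438 to 2600.4 in KO LT-HSC, nearly all of it Nkg7. The NK receptor gene Ncr1 had 0 reads in all 9 KO libraries. Klrb1c, another one, had 18.9, 2.83 and 30.9 normalized counts in KO MPP3 and 0, 31.1 and 0 in KO MPP2, against 35.9, 88.7 and 29.0 in KO LT-HSC, and Gzmb reached 73.3 in 1 KO MPP2 library. Sums over 6 dendritic cell markers, a list that shares Flt3 with the early lymphoid one, were 8456 to 9069.8 in KO MPP3 and 815 to 1439 in KO MPP2, against 1214 to 1908 in KO LT-HSC. Erythroid sums were 11881 to 25748 in KO MPP3 and 13475 to 72312 in KO MPP2, against 1974 to 24476 in KO LT-HSC. B cell sums (759.8 to 912 in KO MPP3 and 477 to 931 in KO MPP2, against 574 to 2869.8 in KO LT-HSC) overlapped between the 3 groups, and mast cell and basophil sums were 2556 to 6106 in KO MPP3 and 5166 to 8296 in KO MPP2, against 5605 to 5695 in KO LT-HSC. The part of these markers in the rises of the 10 genes was not tested. In sorted bulk samples, fewer cells of a type and less RNA per cell cannot be told apart. The mature neutrophil sum in KO MPP3 was 69.3 to 462, against 58.9 to 25027 in KO LT-HSC, where replicate 1 gave the upper end. Without that library, 6 of the 10 genes were called higher in KO MPP3 and 0 in KO MPP2.

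**Figure D4:**
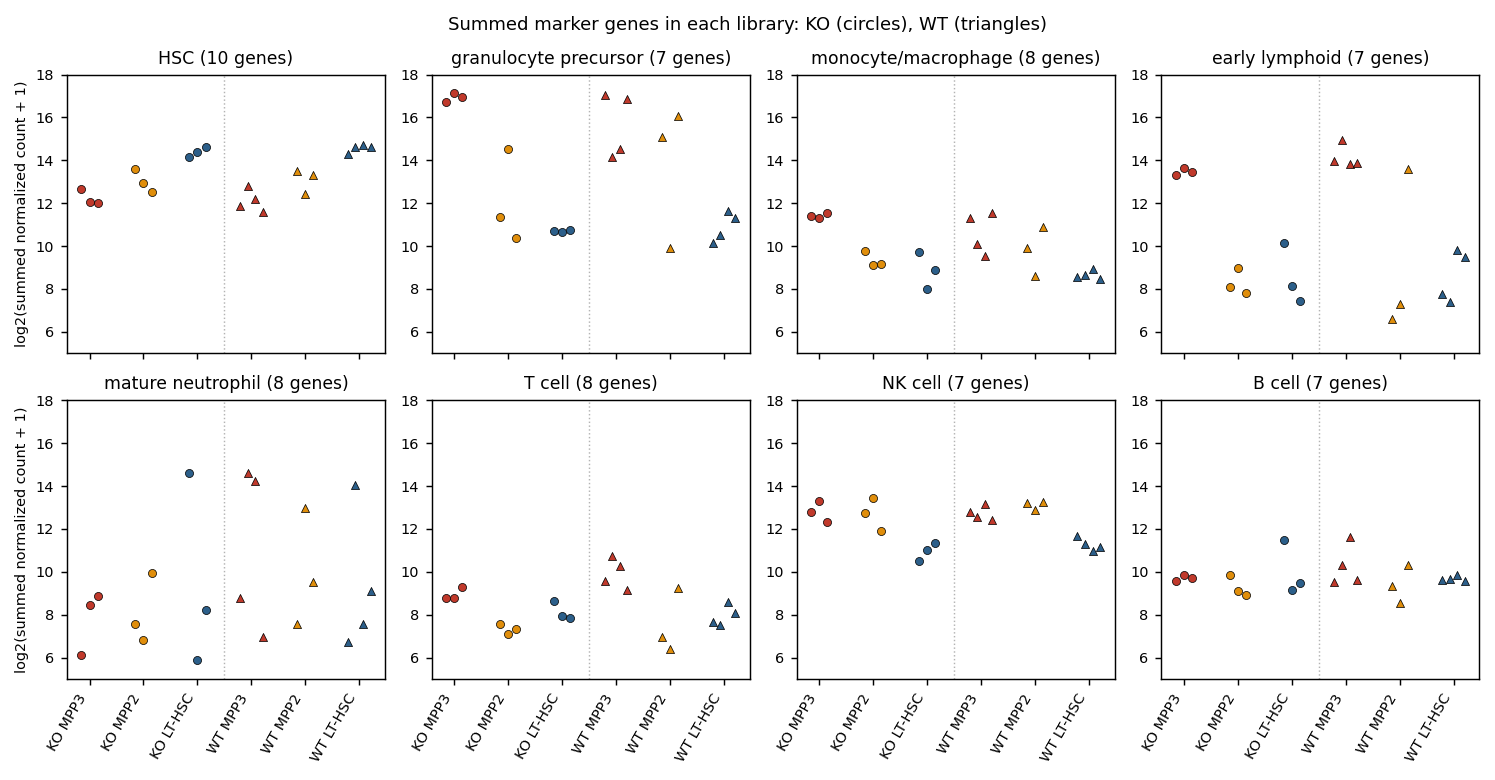
Log2 of the summed normalized counts (plus 1) of marker genes for 8 cell types in each library, KO as circles left of the dotted line and WT as triangles right of it. Granulocyte precursor, monocyte and macrophage, and early lymphoid sums are highest in KO MPP3 among the KO libraries, stem cell markers are highest in KO LT-HSC, and 1 KO LT-HSC library stands out for mature neutrophil markers.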

How the data were processed

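Values were deposited as 1 table of 20 libraries made with the Nextera XT kit. Per the submitters' processing notes, reads were aligned with TopHat2 2.1.1 to GRCm38, counted with HTSeq 0.11.2 and scaled with DESeq (version not given). Annotation release and strand setting: not given in the sources used here. What the authors deposited is thus a normalized signal, with 1 size factor per library, in which each value was a whole multiple of 1 read (tolerance 1e-06), and these reads were recovered. In 2 libraries (WT MPP3 replicate 1, WT MPP2 replicate 2) the size factor is too near 1 for an automatic check to judge, so edgeR was also run on the other 18 libraries. The 5 summary entries of HTSeq were not used in totals or tests. Of all entries, reads in genes were 18.5 to 21.4% and alignments that were not unique 52.6 to 57.8% per library.

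Values were log2(value + 1) transformed, so fold changes of genes with few reads depend on the added 1. Where a group has libraries at or near 0, a fold change can be larger than the ratio of group means. Ccl9 in KO MPP3 against KO LT-HSC had a log2 fold change of 10.05, while its ratio of means was 331. The means of 6 groups were fitted to the 20 libraries with limma 3.58.1 (R 4.3.3, intensity trend, robust), for 17160 genes kept by edgeR's filter, and Benjamini-Hochberg adjusted p under 0.05 over all of them was called. The tested comparisons were KO MPP3 and KO MPP2 with KO LT-HSC, and KO MPP2 with KO MPP3. Fold changes are differences between means on that log2 scale and can differ from the ratio of group means. Alternatives were edgeR 4.0.16 and DESeq2 1.42.0 on the recovered counts, voom, no filter, TMM scaling, a pseudocount of 16, KO libraries alone, and each library left out. The limma and edgeR fits were also run on simulated counts with known changes in KO MPP3, and the outcome is not reported here. Changes in KO MPP2, DESeq2 and voom were not simulated. Gene positions are from GENCODE M21 (GRCm38) and promoters from RefSeq (GRCm38.p6).

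The 10 genes, the 8 family lists and the markers were chosen with earlier results of these data known. Named beside the 10 were up to 3 called genes per list and comparison, smallest p first, the 5 genes most like their mean, and the 1 most like each. Groups came from the labels, and replicate numbers follow accession order. No 2 replicates were alike within counting error.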

Additional observations from a re-analysis of the deposited data

Results flagged for a closer look

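In 20 groups of 4 libraries tested (10 genes in WT MPP3 and in WT LT-HSC), 3 had 1 library far from the others by Dixon's criterion. For normally distributed values chance gives about 1 in 20. These were untransformed normalized counts, several of them 0, so that rate need not hold here. All were in WT LT-HSC. Atp8b4 had 37.03 normalized counts in WT LT-HSC replicate 2 and 0 in the other 3 libraries, where any value above 0 would be flagged. Plac8 had 3109 in WT LT-HSC replicate 3, against 761 to 902 in the others. Tespa1 had 191 in the same replicate 3, against 0 to 16.1 in the others.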

How the results depend on the processing

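Direction was kept by all 10 genes in KO MPP3 against KO LT-HSC under 30 other settings, and Ccl9, Plac8 and Lgals1 kept their calls in all 30. Tyrobp did so in all 29 that gave it a p, since DESeq2 gave none. The call was lost in 8 settings for Atp8b4, 5 for Ubash3a and 2 for Cst7. In KO MPP2 against KO LT-HSC 1 value reversed, that of Cnn3 without KO MPP2 replicate 3 (0.0216; -3.33 to 0.0216 over the libraries left out), and the Clec4d call was lost in 15 settings. The call of Tyrobp between the progenitors was lost in 8 of 29.

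Counts are given in the order KO MPP2 against KO LT-HSC, KO MPP3 against KO LT-HSC, KO MPP2 against KO MPP3, where the main analysis called 206, 327 and 478 genes, and 1 higher, 7 higher and 1 lower of the 10. With edgeR on 20 libraries 5, 190 and 197 genes passed, and on 18 libraries 17, 168 and 186. Both edgeR fits called 0 of the 10 in the first and last comparisons, where 2407 and 2569 genes had an unadjusted p under 0.05 over 20 libraries. For the second, KO libraries alone called 6 of the 10 and the covariate 7. DESeq2 called 684, 595 and 879 genes, and 3 of the 10 in the first. For the first comparison, no filter gave 131 genes and 0 of the 10, voom 121 and 0, KO libraries alone 77 and 0, the run of library numbers as a covariate 363 and 2, leaving out the libraries numbered 52 to 54 310 and 3, and a pseudocount of 16 gave 2 of the 10. For the last, KO libraries alone gave 314 genes and 0 of the 10, the covariate 790 and 4, a pseudocount of 16 and voom 4 of the 10 each, and leaving out libraries 52 to 54 2 of the 10. Leaving out each library gave 54 (without KO LT-HSC replicate 1) to 863 genes (without KO MPP2 replicate 2) and 0 to 2 of the 10 in the first, 161 (without KO MPP3 replicate 3) to 429 (without KO MPP2 replicate 3) and 5 to 8 in the second, and 109 (without KO MPP3 replicate 2) to 1154 (without KO MPP2 replicate 2) and 0 to 4 in the last. The cause was not tested. No paired analysis was possible because the replicate numbers follow accession order and pair no libraries, and the run of library numbers, whose meaning the labels do not give, stands above as the covariate instead.

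Each KO group has 3 libraries. Of the KO LT-HSC libraries, 2 had under 10 reads of Ccl9, 2 had 0 reads of Atp8b4 and 1 had under 10 reads of Cst7. Fold changes of these genes therefore depend on the added 1. With a pseudocount of 16 the KO MPP3 log2 fold change of Ccl9 was 7.54 and that of Atp8b4 5.44.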
